A study of Mus musculus with 6 samples.

Results

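Kallikreins, serpins and the other proteases and protease inhibitors of desquamation were followed in newborn mouse epidermis with and without a constitutively active aryl hydrocarbon receptor. The set holds the genes whose RefSeq symbol begins with Klk, Spink, Serpinb, Stfa or Cst and a digit, together with Cstb, Prss8, Prss27, St14, Spint1, Spint2, Ctsd, Ctsl, Ctsv, Asprv1, Casp14 and Cdsn. Of 102 such symbols in RefSeq's gene list, 80 had a named probe on the array, out of 18217 named genes in all, and 22, among them Spint2, were not analysed here. Of the 80 genes 47 were tested, because 3 or more of the 6 arrays showed 1 of their probes well above background, out of 12824 genes tested in all.

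The epidermis came from mice of mixed strain at postnatal day 0. The 3 AhRCA mice expressed a constitutively active form of AhR, a ligand-activated transcription factor, from the keratin 14 promoter, which is active in basal keratinocytes, and the 3 wild-type (WT) mice were their littermates. Each of 3 samplings gave 1 littermate pair, and 1 single-colour Agilent array was run per RNA, so that the replicates are separate animals. Pairs 1 and 2 lay on slide 1 and pair 3 on slide 2. Xist, the transcript of the inactive X chromosome, had log2 intensities between 4.43 and 4.66 on slide 1 and of -4.20 and -7.14 on slide 2, and the Y-linked Ddx3y between -7.29 and -6.84 on slide 1 and of 1.65 and 1.43 on slide 2, so that slide, litter and sex of pair 3 cannot be told apart. Among transcripts of the labelled tissue, log2 fold changes were 0.0018 for the basal keratin Krt14, -0.051 for the suprabasal keratin Krt10 and 0.054 for the cornified envelope protein Lor. Other markers of the tissue differed more. The 10 listed basal and spinous genes ran from -0.72 to 0.51, with 1 lower and 0 higher at an adjusted p under 0.05 (limma). The 14 tested genes of the granular layer and cornified envelope ran from -0.36 to 0.32, with 0 lower, 0 higher and Flg not tested.

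Corneocytes at the skin surface are held together by corneodesmosomes, and desquamation is their release by proteases. The kallikreins Klk5, Klk7 and Klk14 are secreted serine proteases that cut corneodesmosin and the desmogleins, and Spink5 encodes LEKTI, the Kazal-type inhibitor that restrains them. Matriptase (St14) and prostasin (Prss8) are membrane-bound serine proteases of the same layers, and Asprv1 and Casp14 take part in processing filaggrin. Most clade B serpins, the stefins and cystatin M/E (Cst6) inhibit serine or cysteine proteases.

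The kallikrein genes lie side by side on mouse chromosome 7, and Klk6, the member whose values differed most clearly between the genotypes, sits between Klk7 and Klk5. The 250 bases before the annotated starts of these 3 neighbours are shown because Klk6 passed the test of genotype and both neighbours did not, a difference between genes that was itself not tested. They are from RefSeq on GRCm38.p6, 5′ to 3′, and capitals mark GCGTG, the core of the sequence bound by AhR with its partner Arnt, searched on both strands as GCGTG or its reverse complement CACGC.
Klk7 (chr7:43811044-43811293, + strand): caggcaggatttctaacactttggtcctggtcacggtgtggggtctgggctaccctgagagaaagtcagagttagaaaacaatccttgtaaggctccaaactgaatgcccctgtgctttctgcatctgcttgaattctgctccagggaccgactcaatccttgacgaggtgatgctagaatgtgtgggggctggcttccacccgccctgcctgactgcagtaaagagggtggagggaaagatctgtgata
Klk6, upstream start (chr7:43824294-43824543, + strand): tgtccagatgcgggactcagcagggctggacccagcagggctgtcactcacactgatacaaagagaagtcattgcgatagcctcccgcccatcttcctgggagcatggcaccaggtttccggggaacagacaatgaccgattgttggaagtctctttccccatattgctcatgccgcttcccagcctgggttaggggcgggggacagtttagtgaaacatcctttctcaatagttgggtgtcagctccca
Klk6, downstream start (chr7:43825200-43825449, + strand): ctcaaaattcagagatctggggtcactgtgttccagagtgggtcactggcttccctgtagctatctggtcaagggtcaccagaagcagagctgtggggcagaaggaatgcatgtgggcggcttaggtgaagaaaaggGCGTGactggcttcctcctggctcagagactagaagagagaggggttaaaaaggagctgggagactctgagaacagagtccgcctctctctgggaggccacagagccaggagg
Klk5 (chr7:43842019-43842268, + strand): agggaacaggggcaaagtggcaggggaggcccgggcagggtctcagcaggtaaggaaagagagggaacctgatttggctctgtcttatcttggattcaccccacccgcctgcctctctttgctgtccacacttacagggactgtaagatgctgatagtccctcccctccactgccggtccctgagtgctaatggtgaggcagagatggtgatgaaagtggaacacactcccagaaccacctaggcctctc
The motif occurred once, 113 bases before the downstream start of Klk6. In windows of 300 bases, which add the first 50 bases after the start, 12 of 72 genes of the set with an entry held it (16.7%), among them Klk6, Ctsd, Ctsl, Spint1 and Stfa3, against 9500 of 27025 genes in all (35.2%). The match is a description of these letters only, and which start of Klk6 is used in epidermis was not determined.

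AhRCA epidermis was compared with WT epidermis to see whether constitutive AhR activity in keratinocytes alters these protease and inhibitor transcripts. Klk6, a trypsin-like kallikrein, fell 2.40-fold in AhRCA epidermis, and no gene of the set rose. The proteases known best for desquamation, Klk5, Klk7, Klk8, St14 and Prss8, and the inhibitor Spink5 had log2 fold changes between -0.23 and 0.042 that did not pass the test. Among the inhibitors the Serpinb1 and Serpinb3 genes had negative values, none of which passed. Values are normalized log2 intensities, the log2 of a probe's intensity minus that of the array's 75th percentile, and fold changes are differences of their means.

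Of the 47 tested genes 1 was lower and 0 were higher, taking adjusted p under 0.05 as the threshold (limma, with Benjamini-Hochberg adjustment over all 12824 genes). Among all genes tested 2.18% were called, 1.65% of the genes tested as lower and 0.53% as higher, so that 1 of 47 is a share near the background. At an unadjusted p under 0.05 there were 10 of the 47 (21.3%), all of them lower, against 12.2% of all genes (7.57% lower). When littermates were blocked, 497 of 12824 genes were called (3.88%, and 2.81% as lower) and again 1 of the 47, lower. When the slide was blocked, 539 were called (4.2%, and 2.91% as lower) and 3 of the 47, all lower. These were Klk6, Serpinb1a and Spink8, of which Spink8 was well above background in WT alone and had entered the test through the group where it is high. Of the 45 genes well above background on all 6 arrays, 9 had an unadjusted p under 0.05 (20%), all of them lower. Among all 12060 genes well above background on 6 arrays 1344 did (11.1%), 809 of them lower. On slide 1 alone 1.01% of all genes were called and 0 of the 47 (limma; 10 at an unadjusted p under 0.05, for which the share of all genes was not counted).

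The set as a whole had more negative than positive values. The median log2 fold change was -0.14 over the 47 genes and 0.0013 over all genes, and 33 of 47 were negative (70.2%) against 49.6% of all genes. Every AhRCA array lay below every WT array in 10 of the 47 genes (21.3%, 8.84% of all genes), and every AhRCA array lay above in 0 (7.52% of all genes). The 10 include Spink8, which entered the test through its WT arrays alone. Of the 45 genes well above background on all 6 arrays, 9 had every AhRCA array below every WT array (20%). Among all genes well above background on 6 arrays the share was 8.19%. Of the same 45 genes 32 were negative (71.1%), against 48.8% of all genes so filtered. AhRCA was lower in 3 of 3 pairs in 17 of the 47 genes (20.1% of all genes) and higher in 3 of 3 pairs in 3, Serpinb2, Serpinb6a and Serpinb6d (19.7% of all genes). The values leaned on pair 3: the median difference between AhRCA and WT over the 47 genes was 0.026 in pair 1, -0.086 in pair 2 and -0.33 in pair 3, where that of all genes was -0.042. On slide 1 alone 24 of the 47 were negative, the sign of 9 having turned, with a median of -0.025. These shares describe the set and were not tested.

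The precision sets what can be said of the genes that did not pass. The 95% interval of the log2 fold change lay within -1 and 1, a change of less than 2-fold either way, for 34 of the 47 genes (72.3%, 85.6% of all genes). The 13 others were Klk6, Spink8 and Prss27, whose intervals lay below 0, Serpinb1a, Serpinb3a and Serpinb3c, which did so too, and Cdsn, Klk1b3, Klk1b8, Serpinb3b, Serpinb6d, Serpinb10 and Spink1, whose intervals held 0. The interval of Spink8 rests on AhRCA values not well above background.

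**Figure D1:**
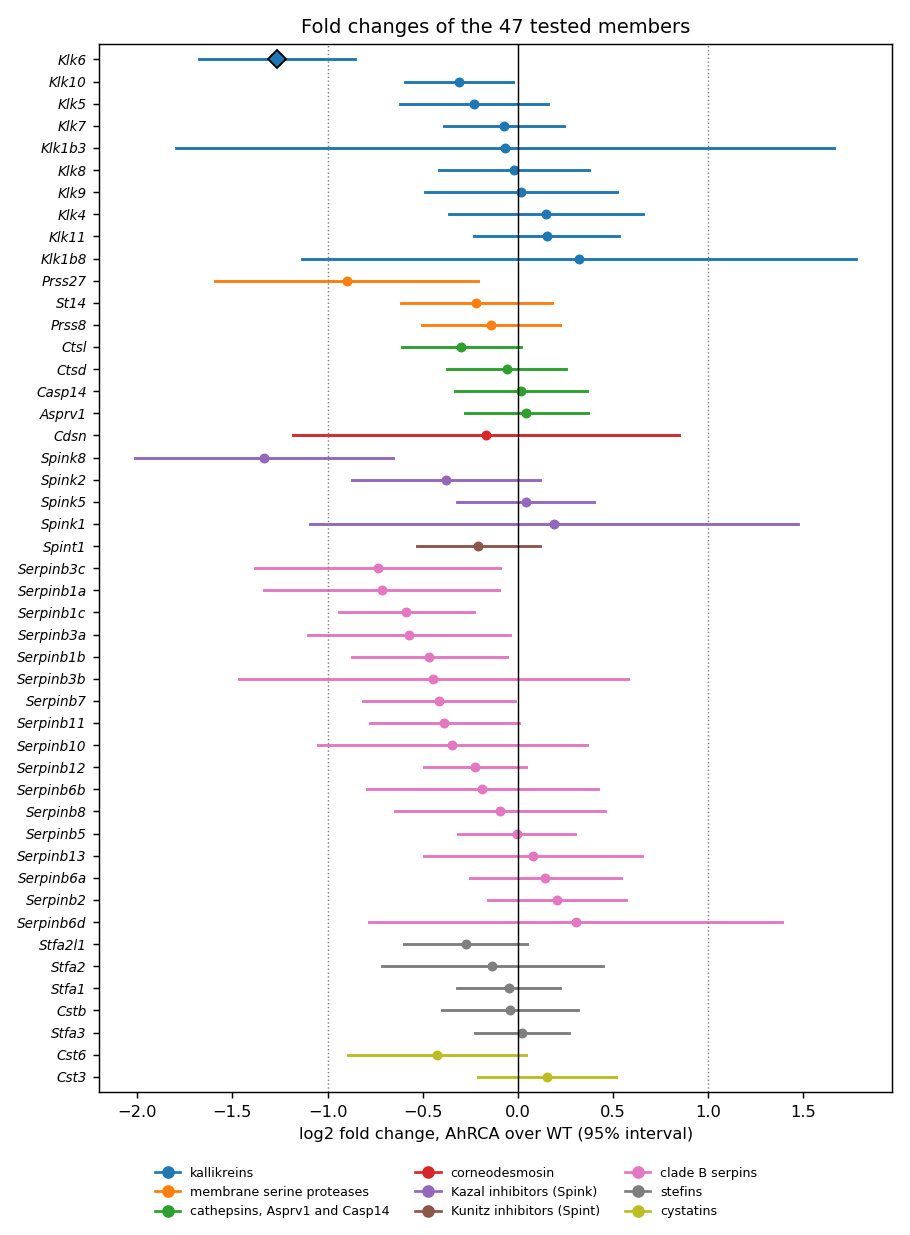
Log2 fold change of AhRCA over WT (x axis) with its 95% interval for each of the 47 tested genes (y axis), coloured by role; dotted lines mark a 2-fold change and the diamond an adjusted p under 0.05. Klk6 is the only diamond, 34 intervals lie between the dotted lines, and 33 of the 47 points lie to the left of 0. The point of Spink8 is the fitted -1.33 and, like its interval, rests on AhRCA values not well above background. The bound for Spink8, 2.11-fold lower in AhRCA, is a smaller change than this point.

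Of the kallikreins 10 were tested, 1 fell and 0 rose, with a median log2 fold change of -0.045. Klk6, also known as neurosin, stood at 1.27, 1.51 and 1.28 in WT 1 to 3 and at 0.42, -0.13 and -0.015 in AhRCA 1 to 3. The groups did not overlap, and AhRCA 1 was the highest of its group. Means were 1.35 ± 0.14 for WT and 0.090 ± 0.29 for AhRCA (SD, n = 3 each), a log2 fold change of -1.26 ± 0.17 (SE) or 2.40-fold lower (limma, adjusted p = 0.0203). Its single probe was well above background on all 6 arrays. AhRCA minus WT was -0.86, -1.65 and -1.29 in pairs 1 to 3.

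The call of Klk6 held when littermates or slides were blocked (adjusted p of 0.0361 and 0.0220, limma) and rested on the full set of arrays: without any 1 array except AhRCA replicate 1 it was lost, with adjusted p between 0.0519 without WT replicate 1 and 0.0921 without WT replicate 2, and on slide 1 alone it was 0.102. With no filter on dim probes it was 0.0538. The fold change itself stayed between -1.43 and -1.14.

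The summed levels of cell type markers are given beside these values. Of 16 marker lists 5 had every AhRCA array below every WT array, 1 had every AhRCA array above, and 10 overlapped. The summed intensity of 11 tested sebaceous gland genes, in multiples of the array's 75th percentile, was 127 to 156 in WT and 76.4 to 86.4 in AhRCA, with 7 of the 11 lower and Mc5r, Awat1 and Dgat2l6 not tested. That of 16 hair follicle genes was 639 to 887 in WT and 435 to 532 in AhRCA, with 2 lower and Krt28 and Krt85 not tested. Merkel cell markers summed to 1.38 to 2.19 in WT and 0.408 to 0.618 in AhRCA, with 3 of 4 lower and Atoh1, Sox2 and Isl1 not tested. Langerhans and dendritic cell markers summed to 57.8 to 63.3 and 41.0 to 49.5, with 1 of 9 lower, 1 higher and H2-Eb1 and Zbtb46 not tested. T cell markers summed to 1.19 to 2.57 and 0.680 to 0.807, with 0 of 6 called (limma; 4 at an unadjusted p under 0.05) and Trdc, Trac, Cd2, Gzma and Prf1 not tested. Macrophage markers were the list that was higher, at 3.84 to 4.24 in WT and 5.48 to 6.89 in AhRCA, with 2 of 7 higher and Cd68 and Lyz2 not tested. Well above background on all 6 arrays were 9 of the 11 sebaceous, 3 of the 4 Merkel, 8 of the 9 Langerhans and dendritic, and 3 of the 6 T cell genes. All 16 hair follicle and all 7 macrophage genes were so too. The remaining genes needed only 3 arrays, which WT arrays alone can supply, and this filter favours a lower AhRCA sum. The part of these cell types in the values of Klk6 and the other genes was not tested, and in bulk RNA fewer cells of a type and less RNA per cell cannot be told apart.

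The neighbours of Klk6 in the cluster did not pass. Klk7, the chymotrypsin-like enzyme of the stratum corneum, stood at 7.01, 7.19 and 7.42 in WT and at 7.14, 7.14 and 7.12 in AhRCA. The AhRCA arrays lay inside the WT range, and the log2 fold change was -0.073 (95% interval -0.39 to 0.24, adjusted p = 0.999, limma), with values from -0.073 to -0.039 over its 3 probes. Klk5, the trypsin-like enzyme that activates other kallikreins, stood at 3.24, 3.25 and 3.70 in WT and at 3.31, 3.12 and 3.06 in AhRCA, a change of -0.23 (-0.62 to 0.16, adjusted p = 0.791). The groups overlapped, and the WT array of pair 3 was the highest. Klk8, or neuropsin, had -0.022 (-0.42 to 0.37), with a negative sign that turned under median scaling and normexp correction.

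Klk9, Klk4 and Klk11 had 0.017, 0.15 and 0.15, and their groups overlapped; the sign of Klk9 turned with quantile normalization. Klk10 had -0.31 (-0.59 to -0.028, adjusted p = 0.345, limma) and was lower on every AhRCA array than on any WT array. The glandular kallikreins Klk1b3 and Klk1b8 varied mostly between slides: Klk1b3 stood at -3.00, -2.53 and -0.57 in WT and at -2.44, -2.83 and -1.03 in AhRCA. Its arrays of slide 2 were the highest in both genotypes. The copies of the Klk1b family are near-identical and can share a probe, so the assignment to 1 of them is uncertain, and Klk1b8 was well above background on 1 WT and 2 AhRCA arrays. Klk14, the other kallikrein of desquamation, and Klk15 were not well above background on any array, and Klk12 was so on 2 WT arrays and 0 AhRCA arrays.

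**Figure D2:**
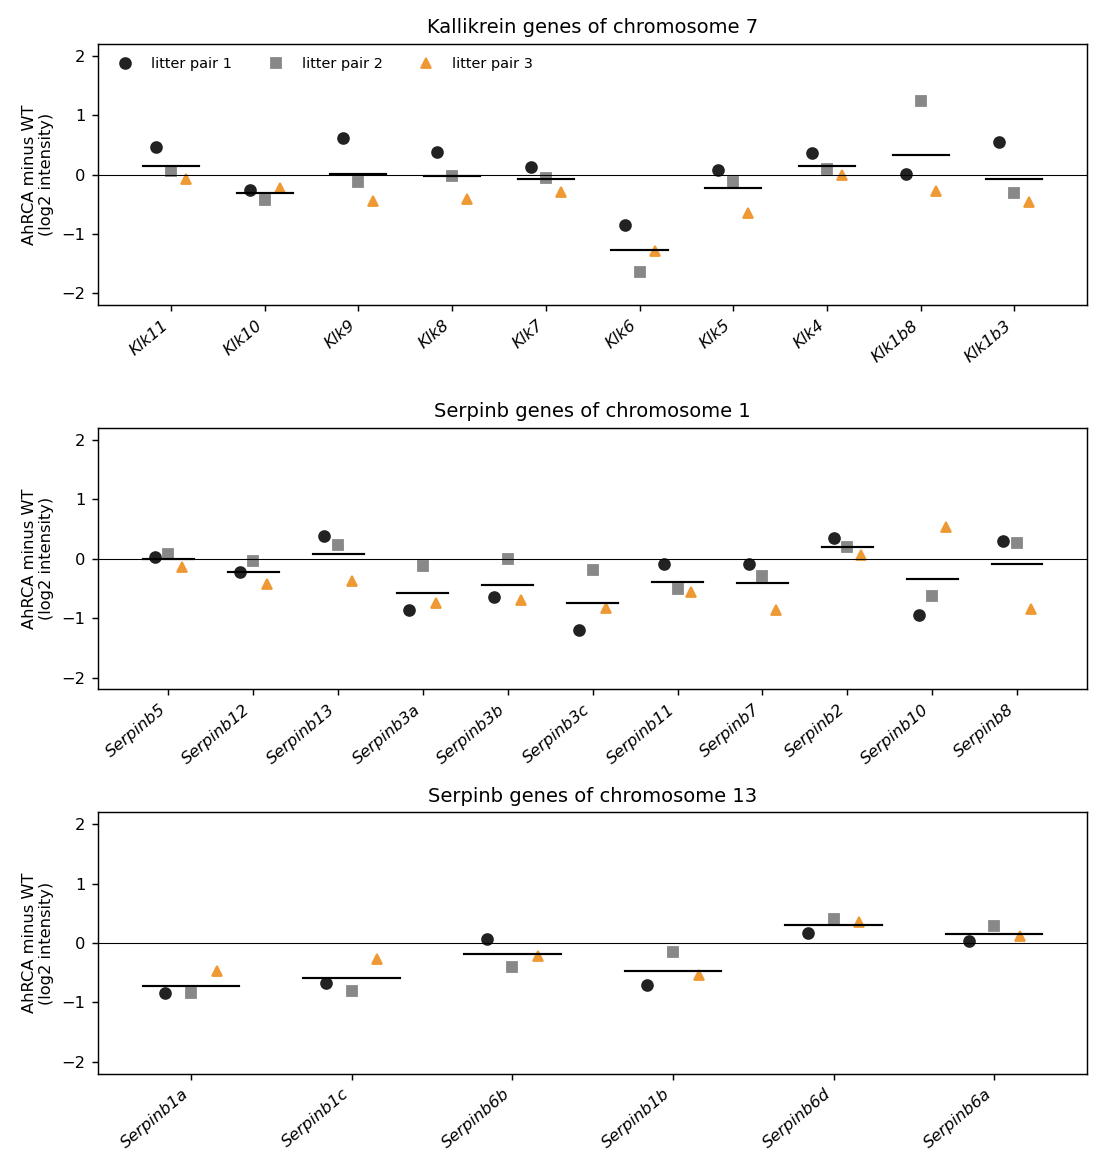
Difference between AhRCA and WT in normalized log2 intensity (y axis) within each litter pair (symbols) and the mean difference (bars) for tested genes of 3 clusters, in the order in which the genes lie on the chromosome (x axis). The pairs of Klk6 lie at -0.86, -1.65 and -1.29, those of its neighbours Klk7 and Klk5 lie on both sides of 0, and all 3 pairs are below 0, though pair 2 of Serpinb3b only just, for the 3 tested Serpinb3 genes of chromosome 1 and the 3 Serpinb1 genes of chromosome 13.

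Of the 3 tested membrane serine proteases 0 passed (limma; 1 at an unadjusted p under 0.05). Prss27, also called marapsin or pancreasin, stood at 0.91, 1.26 and 1.07 in WT and at 0.61, 0.41 and -0.49 in AhRCA. The groups did not overlap and AhRCA 3 was the lowest. The difference was -0.90 ± 0.29 (SE, adjusted p = 0.235, limma), with -0.30, -0.84 and -1.56 in pairs 1 to 3. Matriptase (St14) and prostasin (Prss8), which activates the epithelial sodium channel, had -0.22 (-0.62 to 0.18) and -0.14 (-0.51 to 0.22). The Kunitz-type inhibitor of matriptase, Spint1, had means of 4.10 ± 0.11 in WT and 3.89 ± 0.19 in AhRCA (SD, n = 3 each), a change of -0.21 (-0.53 to 0.11) with overlapping groups.

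Of the 4 intracellular and filaggrin-processing proteases 0 passed (limma; 0 at an unadjusted p under 0.05). Asprv1, the retroviral-like aspartic protease that cleaves profilaggrin, stood at 8.49, 8.68 and 8.51 in WT and at 8.71, 8.71 and 8.38 in AhRCA, a log2 fold change of 0.044 (-0.28 to 0.37). Casp14, the caspase of cornification, had 0.018 (-0.33 to 0.36), and the lysosomal aspartic protease Ctsd -0.059 (-0.37 to 0.25). In these 3 genes the groups overlapped, and of the AhRCA arrays AhRCA 3 was the lowest. Ctsl, a lysosomal cysteine protease, stood at 6.21, 6.49 and 6.59 in WT and at 6.19, 6.12 and 6.09 in AhRCA. Its groups did not overlap, and the change of -0.30 (-0.61 to 0.014) did not pass (adjusted p = 0.446, limma). Cdsn, corneodesmosin, the adhesive substrate of the kallikreins, stood at 4.37, 4.39 and 5.77 in WT and at 4.54, 4.30 and 5.18 in AhRCA. Both arrays of slide 2 were above all 4 arrays of slide 1, by 1.07 on average, and the change of -0.17 had a wide interval (-1.18 to 0.85).

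Of the 4 tested Kazal-type inhibitors 0 passed (limma; 1 at an unadjusted p under 0.05). Spink8 stood at -3.45, -3.95 and -4.33 in WT and at -5.45, -4.78 and -5.50 in AhRCA. The groups did not overlap, but its probe was well above background on 3 WT arrays and on 0 AhRCA arrays. Spink8 thus entered the test through its WT arrays alone, and only a bound on the difference of means can be given, 2.11-fold lower in AhRCA. That bound sets the WT mean against the higher of the probe's own value and the lowest signal above background on each AhRCA array. The test did not pass (adjusted p = 0.0781, limma, and 0.0677 when littermates were blocked). The value of 0.0429 reached when the slide was blocked rests on AhRCA values that were not above background. With normexp correction and an offset of 50 added to each intensity, the measured log2 difference was -0.39, smaller than the bound. An added offset shrinks the fold of a dim probe, so this value cannot show how far the bound depends on background correction.

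Spink5, which encodes LEKTI, stood at 5.24, 5.28 and 5.70 in WT and at 5.50, 5.38 and 5.47 in AhRCA. The AhRCA arrays lay within the WT range, and the log2 fold change was 0.042 (-0.32 to 0.40, adjusted p = 0.999, limma). Spink2 had -0.38 (-0.87 to 0.12) and was lower in 3 of 3 pairs. Spink1, the pancreatic secretory trypsin inhibitor, stood at 0.31, 1.89 and 0.55 in WT and at 1.84, 1.23 and 0.23 in AhRCA, and its arrays spread widely within both groups. Spink6, an inhibitor of kallikreins in skin, was not well above background on any array.

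**Figure D3:**
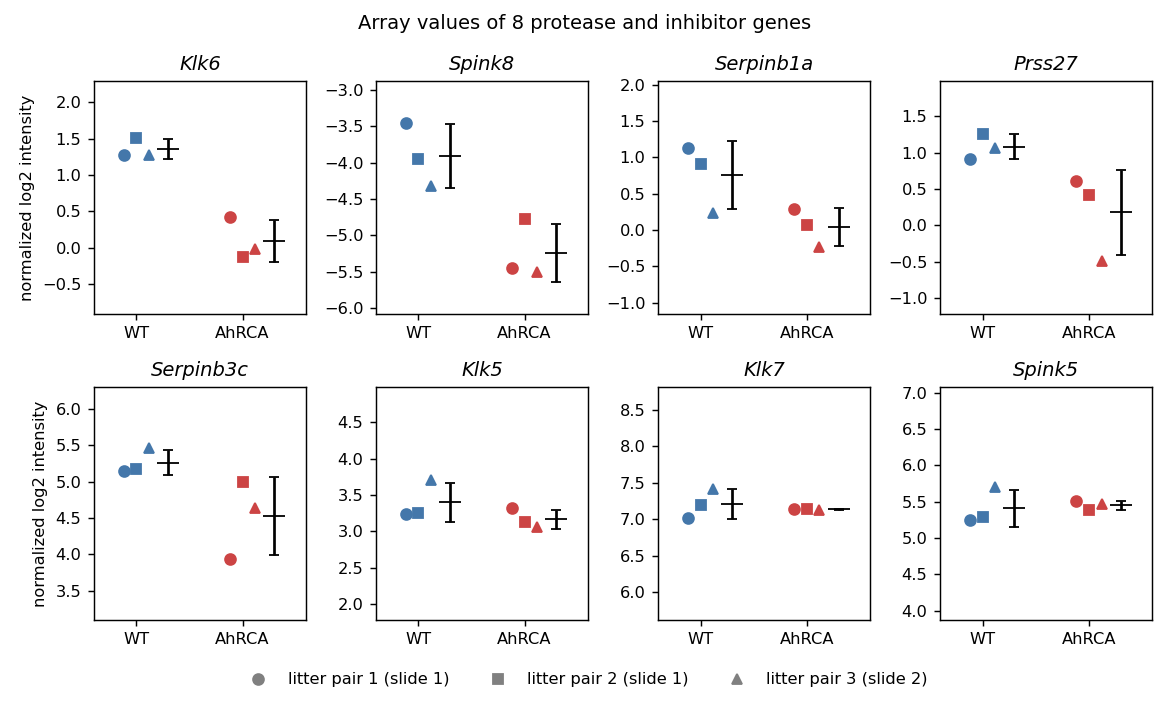
Normalized log2 intensity (y axis; every panel spans 3.2 units) of 8 genes on each array of WT and AhRCA (x axis), with symbols for the litter pairs and black bars for the mean and SD (n = 3). The groups are apart for Klk6, Spink8, Prss27 and Serpinb3c, and overlap for Serpinb1a, Klk5, Klk7 and Spink5. The AhRCA points of Spink8 were not well above background.

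Most clade B serpins are intracellular inhibitors that trap serine or cysteine proteases, and 17 genes of the clade were tested. None passed (limma; 6 at an unadjusted p under 0.05, all lower), and their median log2 fold change was -0.34, with 13 negative and 4 positive. Among all genes 12.2% were at an unadjusted p under 0.05 (limma), 7.57% as lower, and 49.6% were negative. The Serpinb1 genes, mouse counterparts of the leukocyte elastase inhibitor, were lower in 3 of 3 pairs in each of 3 genes, a pattern that 20.1% of all genes had. Serpinb1a stood at 1.13, 0.91 and 0.24 in WT and at 0.29, 0.066 and -0.23 in AhRCA. The groups overlapped, because WT 3 lay below AhRCA 1, whereas within each pair AhRCA was lower, with differences of -0.84, -0.85 and -0.47. The difference of means, -0.72 ± 0.26 (SE), had an adjusted p of 0.309, which was 0.0509 when littermates were blocked and 0.0493 when the slide was (limma). Serpinb1c and Serpinb1b had -0.59 ± 0.15 and -0.47 ± 0.17 (adjusted p = 0.128 and 0.323, limma). With normexp correction, whose added offset shrinks the folds of dim probes, they had -0.23 and -0.11. The other probe of Serpinb1b, well above background on 3 arrays only, had -0.35. Whether the 3 Serpinb1 genes share probes was not examined, so they are not to be read as independent observations.

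Neutrophils, which contain the elastase that Serpinb1 inhibits, had 10 of 12 listed markers untested, among them Ly6g, Mpo and Elane, and the remaining S100a8 and S100a9, which keratinocytes also express, had a summed intensity of 4.10 to 23.8 in WT and 4.25 to 10.2 in AhRCA. These ranges overlapped, and their part in the Serpinb1 values was not tested.

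The Serpinb3 genes, counterparts of the squamous cell carcinoma antigens, were also lower in 3 of 3 pairs in each of 3 tested genes. Of all genes 20.1% had this pattern. Serpinb3c stood at 5.14, 5.18 and 5.46 in WT and at 3.94, 4.99 and 4.63 in AhRCA. The groups did not overlap, and AhRCA 1 was the lowest. The difference was -0.74 ± 0.27 (SE, adjusted p = 0.319, limma), and its other probe had -0.76. Serpinb3a stood at 1.68, 1.66 and 2.09 in WT and at 0.82, 1.54 and 1.35 in AhRCA, a change of -0.57 ± 0.22 with groups apart. Serpinb3b had -0.45 ± 0.43, with overlapping groups and arrays of slide 2 higher than those of slide 1 by 1.07 on average. These copies resemble each other closely and can share probes, so that the 3 genes are not independent observations. The values of the Serpinb1 and Serpinb3 genes were negative under each scaling tried.

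The other serpins of chromosome 1 ranged from -0.41 for Serpinb7, an inhibitor of the upper epidermis (-0.82 to -0.013, adjusted p = 0.388, limma), to 0.20 for Serpinb2, the plasminogen activator inhibitor PAI-2 (-0.16 to 0.57). Serpinb12 had -0.22, Serpinb11 -0.39, Serpinb10 -0.34 and Serpinb13 0.077. The other probe of Serpinb12 had -0.078, and that of Serpinb10, well above background on 3 arrays only, had -0.83. Serpinb5, or maspin, stood at 7.37, 7.35 and 7.23 in WT and at 7.39, 7.44 and 7.10 in AhRCA, with a difference of -0.0075 (-0.31 to 0.30) whose sign turned under median scaling. Serpinb8 had -0.095 (-0.65 to 0.46) with opposite signs in the pairs, at 0.30, 0.27 and -0.85. The Serpinb6 genes of chromosome 13 had 0.14 for Serpinb6a, -0.19 for Serpinb6b and 0.30 for Serpinb6d.

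Stefins and cystatins inhibit cysteine proteases such as cathepsins, and of 5 tested stefins and 2 tested cystatins 0 passed (limma; 0 at an unadjusted p under 0.05). Stfa1 and Stfa3, mouse copies of stefin A, had -0.047 (-0.32 to 0.22) and 0.021 (-0.23 to 0.27), and the stefin B gene Cstb -0.042 (-0.40 to 0.31). Stfa2 and Stfa2l1 had -0.14 and -0.28. The stefin A copies can share probes. Cst6, cystatin M/E, an inhibitor of legumain and of cathepsins L and V that is needed for normal cornification, stood at 6.03, 6.49 and 6.22 in WT and at 6.10, 5.88 and 5.49 in AhRCA. The groups overlapped, with a change of -0.43 (-0.89 to 0.043, adjusted p = 0.485, limma) and pair values of 0.068, -0.61 and -0.73. Cst3, cystatin C, had 0.15 (-0.21 to 0.51).

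The 33 genes that were not tested were 14 kallikreins, 8 serpins, 7 cystatins and 4 Kazal-type inhibitors. Of these 26 were not well above background on any array and 7 were so on 1 or 2 arrays. The Serpinb9 genes and the cystatins Cst7 to Cst13 were among them, as was Serpinb3d. Neither a fold nor a bound is given for the 33 genes, so a change in them cannot be judged.

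Where the 12 tested genes with more than 1 kept probe could be compared, 0 had probes of opposite sign, though the size differed between probes of Serpinb10 and of Serpinb12. The differences between slides were larger than those between genotypes for some genes: 5 of the 47 differed by more than 1 on the log2 scale between slides, namely Klk1b3, Klk1b8, Serpinb6d, Cdsn and Serpinb3b, against 414 of 12821 genes in all (3.23%). With a genotype by slide term, added after the data were seen, 0 of the 47 passed and 1 of 12824 genes did (limma, adjusted p under 0.05; 8 and 1280 at an unadjusted p under 0.05).

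Other genes of the pathway were taken from 5 lists, to be read against all genes tested, of which 1.65% were lower, 0.53% higher and 12.2% at an unadjusted p under 0.05. When littermates were blocked, 3.88% of all genes were called, 2.81% as lower. Of 14 tested components of corneodesmosomes and desmosomes 0 passed (limma; median 0.014, 2 at an unadjusted p under 0.05), and Dsg1c, Dsc3 and Dsg4 were not tested. The largest changes were -1.01 ± 0.20 (SE) for plakophilin 2 and -0.36 ± 0.15 for desmoglein 2 (adjusted p = 0.0653 and 0.403, limma). Of 16 tested genes of the list for filaggrin and its processing 1 fell and 0 rose (limma; median -0.31). The filaggrin gene Flg itself was not tested. At an unadjusted p under 0.05 there were 7 of the 16 (43.8%), all lower, and 7 had every AhRCA array below every WT array (8.84% of all genes). Of the 16 genes 14 were well above background on all 6 arrays. The called gene was Padi4, a peptidylarginine deiminase, with -1.43 ± 0.17 (adjusted p = 0.0140, limma), and 3 fell when littermates were blocked. The call of Padi4 was lost without AhRCA replicate 1 or 2 (adjusted p = 0.0578 and 0.0767, limma) and on slide 1 alone (0.0904).

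Of 17 genes of the protease-activated receptor and the matriptase-prostasin axis 0 passed (limma; median -0.20, 3 at an unadjusted p under 0.05), and when littermates were blocked 1 rose and 1 fell. Of the fitted differences that of Tmprss11e was the largest (-1.54 ± 0.64, adjusted p = 0.404, limma), but its probe was well above background on 2 WT arrays and 1 AhRCA array only. Next was Hpn, which encodes the membrane protease hepsin (-0.87 ± 0.22, adjusted p = 0.133, limma, and 0.0176 when littermates were blocked). Of 24 other epidermal proteases 1 fell, the metalloproteinase Adam8 with -1.25 ± 0.16 (adjusted p = 0.0154, limma), 0 rose, and the median was -0.023, with 6 of the 24 at an unadjusted p under 0.05, 4 of them lower. The call of Adam8 was lost without WT replicate 2 (adjusted p = 0.0504, limma), without AhRCA replicate 2 (0.0696), without AhRCA replicate 3 (0.0560) and on slide 1 alone (0.0936). When littermates were blocked 1 rose and 3 fell.

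Of 22 other protease inhibitors 2 fell and 0 rose (limma; median -0.11), and 7 were at an unadjusted p under 0.05, 6 of them lower. Wfdc12, of the whey acidic protein family, had -1.54 ± 0.25 (adjusted p = 0.0357, limma) and Timp1, an inhibitor of metalloproteinases, -0.90 ± 0.15 (adjusted p = 0.0402, and 0.0548 when littermates were blocked). The call of Wfdc12 held without AhRCA replicate 2 and was lost without each other array (adjusted p from 0.0655 without WT replicate 3 to 0.132 without WT replicate 2, limma), on slide 1 alone (0.131) and with no filter on dim probes (0.0830). That of Timp1 was lost without any 1 array (adjusted p from 0.0579 to 0.148, limma) and under normexp correction with its added offset, where its log2 fold change was -0.56. It was also lost under quantile normalization, under median scaling, with no filter on dim probes and on slide 1 alone.

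**Figure D4:**
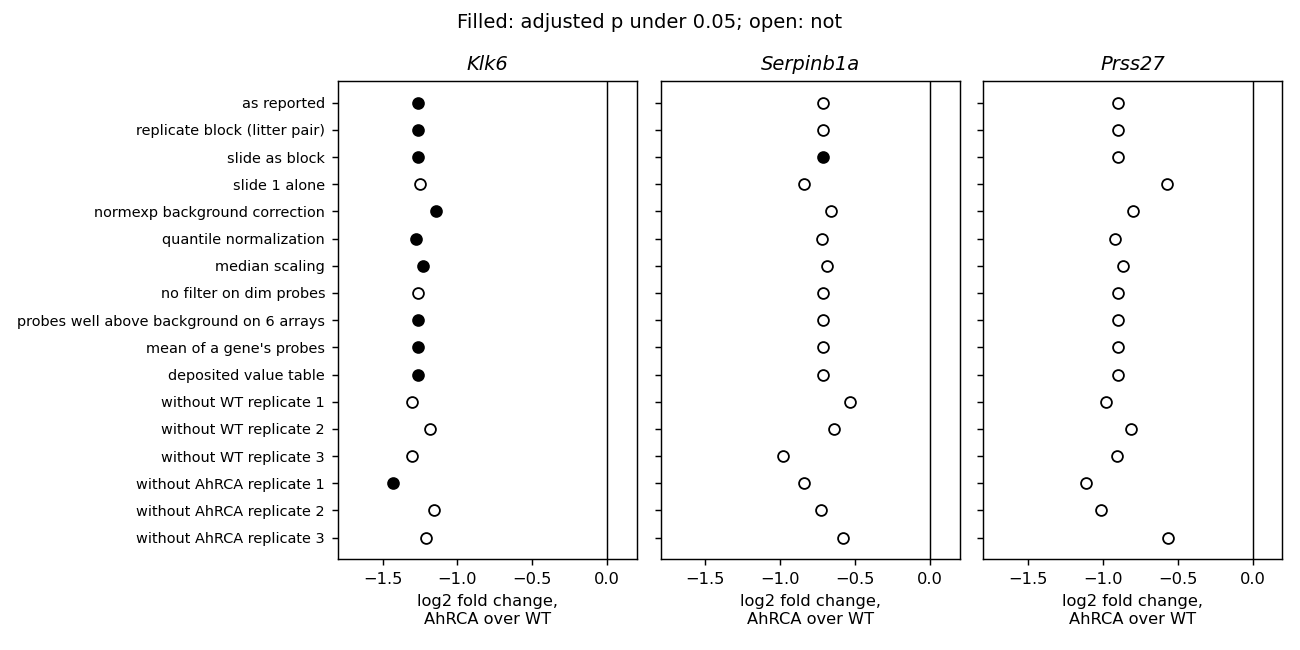
Log2 fold change of AhRCA over WT (x axis) of Klk6, Serpinb1a and Prss27 under the reported analysis and each alternative (y axis); filled points had an adjusted p under 0.05. Klk6 stays between -1.43 and -1.14 and is open when any 1 array other than AhRCA replicate 1 is left out, Serpinb1a is filled only with the slide as a block, and Prss27 is open throughout.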

How the data were processed

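RNA was labelled with Cy3 per the labels' protocols, and the deposited intensity of each spot is a scanner value of Agilent Feature Extraction 10.7.3.1, corrected for local background and for a spatial trend fitted to each array, per the file headers. The authors' deposited log2 table (41267 rows) differed between arrays as the log2 intensities do, with a slope of 1.00; it served as an alternative.

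Log2 processed intensity was set relative to the 75th percentile of that array's non-control spots. Control spots and 56 to 94 outlier spots per array were left out, and spots of a probe were averaged. Between 56.2% and 61.3% of spots were well above background and 0 were saturated; 3 arrays per group limit the precision. Probes were named through RefSeq accessions (GRCm38.p6 table), 26690 of 41174 matching a symbol. Probes well above background on at least 3 arrays were kept, and the brightest stood for its gene. Genotypes were compared with limma 3.58.1 (R 4.3.3; 2 group means, two-sided, Benjamini-Hochberg over 12824 genes, tested on simulated data); 3 genes had a missing array value, none of them in this set. Intervals used 6.62 degrees of freedom. Normexp was run on median signals, since that is the signal column the files hold, with an offset of 50 that shrinks the folds of dim probes.

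The members and lists were chosen with earlier results of these data known. The rule for named genes took every member called with or without a block, the core desquamation genes whatever their result, and the leading genes of each list; others were named after their values were seen. The labels pair littermates by replicate number, and the litter pair was used as a block in an alternative fit. Deviations of same-numbered arrays correlated at 0.337, 0.372 and 0.550. Those of unlike-numbered arrays on slide 1 correlated at 0.194 and 0.150, and those of arrays on different slides between -0.416 and -0.356. Slide and sex therefore share in this pattern, and for pair 3 they cannot be told apart from litter.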

Additional observations from a re-analysis of the deposited data

How the results depend on the processing

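Of 12824 genes 279 were called, 497 with the replicate number (litter pair) as a block, 539 with the slide as a block, 130 on slide 1 alone, 132 with no filter on dim probes and 62 to 195 with 1 array left out. The set had 1 called gene (0 higher, 1 lower), 1 with the litter pair as a block, 3 with the slide as a block (1 of them Spink8, above background in WT only), 0 on slide 1 alone, 0 with no filter (Klk6 at an adjusted p of 0.0538) and 0 to 1 with 1 array left out. With littermates blocked, slides blocked and slide 1 alone, filaggrin and its processing had 3, 2 and 0 called genes, the protease-activated receptor and matriptase-prostasin axis 2, 2 and 0, and other epidermal proteases 4, 1 and 0; other protease inhibitors had 1 on slide 1 alone. The litter pair block changed no call of a gene of the set. All 47 genes and the 8 named from other lists were followed under each alternative that kept them (a filter on 6 arrays leaves out Spink8 and Klk1b8 of the 47), and the genes whose sign turned had no call under any of them. On slide 1 alone the log2 fold changes were 0.038 for Klk7, 0.17 for Klk8, 0.040 for Cdsn, 0.053 for Ctsd, 0.057 for Serpinb5, 0.28 for Serpinb8, 0.13 for Klk1b3, 0.014 for Stfa1 and 0.10 for Cstb. Under median scaling Klk8 had 0.011 and Serpinb5 0.025, with normexp correction Klk8 had 0.0040, and with quantile normalization Klk9 had -0.00061. With 1 array left out the ranges were -0.17 to 0.033 for Klk7, -0.17 to 0.087 for Klk8, -0.041 to 0.19 for Spink5, -0.42 to 0.29 for Cdsn, -0.011 to 0.15 for Asprv1, -0.057 to 0.13 for Casp14, -0.12 to 0.039 for Ctsd, -0.071 to 0.10 for Serpinb5, -0.22 to 0.11 for Serpinb8, -0.20 to 0.16 for Klk9, -0.60 to 0.66 for Klk1b3, -0.0030 to 0.94 for Klk1b8, -0.18 to 0.67 for Spink1, -0.10 to 0.69 for Serpinb6d, -0.15 to 0.33 for Serpinb13, -0.32 to 0.059 for Stfa2, -0.029 to 0.055 for Stfa3, and -0.18 to 0.079 for Cstb. The cause of these shifts was not tested. Signal over background limits Spink8 and Klk1b8, whose probes were above background on 3 arrays only.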
